A study of Mus musculus with 9 samples.

Results

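The genes described here are the members of the HoxA, HoxB, HoxC and HoxD clusters, taken as every gene whose symbol in the array's probe annotation is Hox, a cluster letter and a number. Of these, 33 had a probeset that names no other gene, among 30142 genes measured in all. The 33 are 8 HoxA, 9 HoxB, 9 HoxC and 7 HoxD genes, each on 1 probeset. Hoxa7, Hoxa9, Hoxb4, Hoxd3 and Hoxd4 lie only on probesets that carry a second symbol. Expression was measured in LSK cells, the lineage-negative, Sca-1-positive, c-Kit-positive fraction of bone marrow, in which blood stem cells and multipotent progenitors lie. The 4 knockout (KO) mice were Abi1(-/-);Tg(Mx1-cre(+)) and the 5 wild-type (WT) mice Abi1(fl/fl);Tg(Mx1-cre(-)). Each biological replicate, taken here as 1 mouse, gave 1 Affymetrix whole-transcript array from 5 ng of RNA. Poly(I:C), an inducer of interferon, was injected 3 times into KO and WT mice at 8 to 9 weeks of age, and marrow was taken at 12 to 14 weeks. The Mx1 promoter responds to interferon and is not restricted to blood cells, recombination was checked by PCR in the marrow, and Cre was present only in KO mice, so an effect of Cre cannot be told apart from that of losing Abi1, an adaptor protein of the actin-regulating WAVE complex.

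Hox genes encode homeodomain transcription factors that lie in ordered clusters, and genes at the same place in different clusters are paralogues with the same number. In the embryo they set position along the body axis, with low numbers acting towards the head and high numbers towards the tail and the limb ends. In blood they are known from stem and progenitor cells, where several HoxA and HoxB proteins promote self-renewal together with the cofactors Meis and Pbx, and where their level falls as cells mature. MLL (Kmt2a) and other trithorax proteins keep Hox clusters active, and polycomb proteins keep them silent.

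The targeted gene matched the labels in every array, with Abi1 log2 signals of 5.59 to 6.11 in KO and 11.49 to 11.65 in WT. Kit, the gene of the c-Kit gate, averaged 14.38 ± 0.37 (SD, n = 4) among KO arrays, against 14.67 ± 0.16 (SD, n = 5) among WT arrays, while Ly6a, which encodes Sca-1, was not on a single-symbol probeset. Background was set in each array at percentile 95 of 1717 olfactory and vomeronasal receptor genes, whose transcripts are not expected in blood cells. It lay at 5.64 in KO replicate 1 and at 5.29 to 5.37 in the other 8 arrays. The Abi1 signal left in KO was above this level in all 4 KO arrays, and the cause was not tested. The arrays least like the rest were KO replicate 1 and WT replicate 5, whose median correlations across genes with the remaining arrays were 0.986 and 0.989, against 0.993 to 0.996 for the other 7.

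Promoters of 4 HoxA genes are shown first, because the cluster holds both genes above background and genes below it in every array. Hoxa5 and Hoxa6 were above background in all 9 arrays and Hoxa11 and Hoxa13 in none. They were chosen after their values had been seen. Each window is the 250 bases before the RefSeq start of the gene (assembly GRCm38.p6), written 5′ to 3′ on the gene's strand, and the capitals mark CpG dinucleotides, the sites of DNA methylation.
Hoxa5 promoter, chr6:52204588-52204837, minus strand: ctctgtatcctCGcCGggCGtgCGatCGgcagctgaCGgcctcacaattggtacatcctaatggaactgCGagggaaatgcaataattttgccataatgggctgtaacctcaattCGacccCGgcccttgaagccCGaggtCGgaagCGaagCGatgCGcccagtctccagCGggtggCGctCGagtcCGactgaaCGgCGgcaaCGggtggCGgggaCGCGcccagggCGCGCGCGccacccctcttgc
Hoxa6 promoter, chr6:52208673-52208922, minus strand: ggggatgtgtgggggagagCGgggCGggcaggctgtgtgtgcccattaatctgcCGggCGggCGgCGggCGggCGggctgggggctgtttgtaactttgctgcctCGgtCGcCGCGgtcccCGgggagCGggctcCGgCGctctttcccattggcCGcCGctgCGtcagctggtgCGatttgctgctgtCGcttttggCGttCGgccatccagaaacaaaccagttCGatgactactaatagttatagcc
Hoxa11 promoter, chr6:52245811-52246060, minus strand: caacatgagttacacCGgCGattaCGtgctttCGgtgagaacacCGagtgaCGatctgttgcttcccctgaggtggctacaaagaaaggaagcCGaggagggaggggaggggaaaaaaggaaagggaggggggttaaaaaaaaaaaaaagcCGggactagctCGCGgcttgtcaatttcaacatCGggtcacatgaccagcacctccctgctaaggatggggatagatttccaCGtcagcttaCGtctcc
Hoxa13 promoter, chr6:52260881-52261130, minus strand: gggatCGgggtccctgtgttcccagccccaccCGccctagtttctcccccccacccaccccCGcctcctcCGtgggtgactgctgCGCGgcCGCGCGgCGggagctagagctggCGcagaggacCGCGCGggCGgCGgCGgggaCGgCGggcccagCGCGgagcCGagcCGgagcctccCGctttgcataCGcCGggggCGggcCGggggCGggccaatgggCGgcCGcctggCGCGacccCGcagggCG

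The windows hold 28 CpGs in Hoxa5, 24 in Hoxa6, 13 in Hoxa11 and 35 in Hoxa13, so the count did not follow whether a gene was above background. A promoter window was at hand for 17 of the 33 genes. The 5 of them above background had a median of 18 CpGs (6 to 28) and the 12 below it a median of 12.5 (2 to 35), against a median of 6 over all 27025 RefSeq windows of this length. Both groups of Hox windows thus had a higher median than promoters in general. Motifs were searched on both strands. TATAAA, the TATA box, was in 0 of the 5 windows and 2 of the 12, against 12.97% of all windows. CCAAT, bound by NF-Y, was in 3 of 5 and 8 of 12, against 34.5%. The PBX-HOX motif TGATNNAT was in 1 of 5 (Hoxa2) and 2 of 12, against 7.91%. The MEIS motif TGACAG was in 2 of 5 (Hoxa2 and Hoxa3) and 0 of 12, against 16.0%. A match is a run of letters and not a measured site, and no factor's binding was measured here.

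Of the 33 Hox genes, 8 (24.2%) had a mean log2 signal above background, against 53.2% of all genes. They were Hoxa2, Hoxa3, Hoxa4, Hoxa5, Hoxa6, Hoxa10, Hoxb2 and Hoxb3. Above background in every array were 7 (21.2%), against 48.8% of all genes, and 24 were below it in every array. The signal was thus held by part of HoxA, where 6 of 8 measured genes were above background by mean, and by 2 of 9 HoxB genes, with 0 of 9 HoxC genes and 0 of 7 HoxD genes. By paralogue number, 4 of 6 genes at positions 1 to 3 were above background, 3 of 12 at positions 4 to 8, and 1 of 15 at positions 9 to 13. The tally leaves out the shared probesets, of which those of Hoxb4, Hoxa7 and Hoxa9, each with a second symbol, were above background in all 9 arrays. Hoxa10 was the gene above background at positions 9 to 13, and Hoxa11 and Hoxa13 beyond it in the same cluster were below background in every array. Probesets differ in how brightly they read the same amount of RNA, so a signal below background does not show that a gene is off, and levels are not ranked between genes here.

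**Figure D1:**
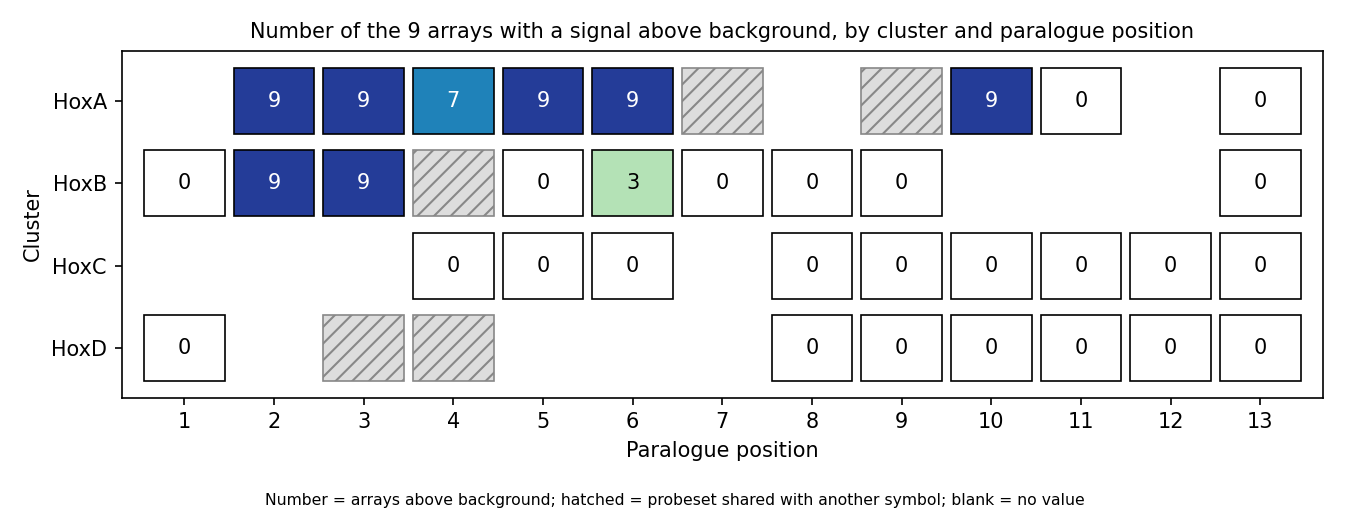
Number of the 9 arrays (4 KO and 5 WT) in which each Hox gene was above background, by cluster (rows) and paralogue position (columns). Genes above background in all 9 arrays are 5 of HoxA and 2 of HoxB, and every measured HoxC and HoxD box reads 0; hatched boxes are genes on a probeset shared with another symbol, and blank places have no value.

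Genes next to the threshold were few. Hoxa4 was the nearest above it, by 0.16 on the log2 scale, and Hoxa3 was next, by 0.41. Hoxb6 and Hoxc9 were the nearest below, with mean signals minus background of -0.075 and -0.076. Hoxb6, whose forced expression expands mouse haematopoietic stem cells, gave 5.49, 5.29, 5.02 and 5.07 (log2 signal) in KO replicates 1 to 4, against 5.29, 5.38, 5.29, 5.48 and 5.33 in WT replicates 1 to 5. It was above background in 0 of 4 KO and 3 of 5 WT arrays, and its highest KO signal came from the array with the highest background. Hoxc9, a patterning gene of the thoracic body and its motor neurons, read 5.48, 5.11, 5.33 and 5.29 in KO, against 5.29, 5.29, 5.29, 5.26 and 5.29 in WT, below background in all 9. With background at percentile 90 the count was 12, adding Hoxb5, Hoxb6, Hoxc6 and Hoxc9, and at percentile 99 it was 6, without Hoxa3 and Hoxa4.

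The comparison of KO with WT asked whether loss of Abi1 changes the Hox genes of LSK cells. Of the 33 genes, 0 passed limma's test at an adjusted p of 0.05 over all genes, where 1 of 30142 genes (0.00332%) did, Abi1 itself. At an unadjusted p under 0.05 the limma count of Hox genes was also 0, against 5.01% of all genes. In 0 of the 33 were the KO and WT arrays apart without overlap, against 0.856% of all genes. By the exact permutation test 0 of the 33 had a p under 0.05. That test was added for single genes only, so there is no share over all genes to set beside this count. Among the 8 genes above background, 7 had a lower mean in KO and 1, Hoxb2, a higher one, with a median difference of -0.16 on the log2 scale. Over all 16023 genes above background the median was 0.018, with 8700 higher and 7285 lower. The values of each gene follow, with HoxA before HoxB and low numbers first. In bulk RNA a lower signal from fewer cells of a type and one from less RNA per cell cannot be told apart.

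Hoxa2, a patterning gene of the hindbrain and the branchial arches (probeset TC0600003540.mm.1), gave 6.49, 6.49, 6.49 and 6.06 (log2 signal) in KO replicates 1 to 4, against 6.39, 6.32, 6.47, 7.15 and 7.25 in WT replicates 1 to 5. WT replicates 4 and 5 stood above every KO array, and the other 3 WT arrays lay within the KO range. The means were 6.38 ± 0.22 (SD, n = 4) among KO arrays, against 6.72 ± 0.45 (SD, n = 5) among WT arrays. The difference of -0.33 had a standard error of 0.23 and a 95% interval from -0.85 to 0.18 (limma adjusted p = 0.786). It was -0.20 without WT replicate 5 and -0.011 without WT replicates 4 and 5. Hoxa3, needed for the thymus and parathyroid (TC0600003541.mm.1), read 5.75, 5.75, 5.61 and 5.69 in KO, against 5.58, 5.75, 5.61, 5.86 and 6.45 in WT. Here WT replicate 5 alone stood clear of the other arrays. The difference was -0.15 (SE 0.17, interval -0.53 to 0.23, limma adjusted p = 0.799), and it was 0 without WT replicate 5. Hoxa4, a gene of the cervical axial skeleton (TC0600002278.mm.1), read 5.62, 5.49, 5.28 and 5.49 in KO, against 5.49, 5.49, 5.49, 5.70 and 5.68 in WT. The groups overlapped, 5 of the 9 arrays held the same value, and 2 of 4 KO and 5 of 5 WT arrays were above background. Its difference was -0.10 (SE 0.080, interval -0.28 to 0.084), and -0.037 without KO replicate 3.

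Hoxa5, which in human progenitors favours myeloid over erythroid fate when forced (TC0600002279.mm.1), had log2 signals of 7.24, 7.11, 6.63 and 6.80 in KO, against 7.17, 6.69, 7.09, 7.68 and 8.77 in WT. WT replicates 5 and 4 were again the highest, and the other WT arrays lay within the KO range. Hoxa5 had the largest difference of the 33 genes, -0.53, with means of 6.95 ± 0.28 (SD, n = 4) among KO arrays, against 7.48 ± 0.80 (SD, n = 5) among WT arrays. The standard error was 0.39, the interval ran from -1.43 to 0.36 and limma's adjusted p was 0.786. Without WT replicate 5 the difference was -0.21, and without WT replicates 4 and 5 it was -0.038. Hoxa6, a gene of the lower cervical and upper thoracic axial skeleton (TC0600002280.mm.1), read 8.12, 8.48, 7.67 and 8.12 in KO, against 7.88, 7.81, 7.97, 8.96 and 9.44 in WT. The pattern was that of Hoxa5, with WT replicates 4 and 5 above every other array. The means were 8.10 ± 0.33 (SD, n = 4) among KO arrays, against 8.41 ± 0.74 (SD, n = 5) among WT arrays, and the difference of -0.31 (SE 0.37) had an interval from -1.16 to 0.53. It was -0.058 without WT replicate 5, -0.18 without WT replicate 4, -0.17 without KO replicate 3 and 0.21 without WT replicates 4 and 5. Hoxa10, which expands myeloid progenitors when forced in mouse marrow (TC0600002284.mm.1), read 6.19, 6.43, 6.26 and 6.05 in KO, against 6.30, 6.26, 6.27, 6.38 and 6.17 in WT. It did not share the pattern of its neighbours, since WT replicate 5 was the lowest WT array. The difference was -0.044 (SE 0.077, interval -0.22 to 0.13), and it ran from -0.11 to 0.017 when 1 array was left out.

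Hoxb2, a hindbrain patterning gene (TC1100001500.mm.1), had log2 signals of 6.44, 6.23, 6.13 and 5.99 in KO, against 6.12, 6.05, 6.26, 6.21 and 6.06 in WT. KO replicate 1, the array with the highest background, was the highest. The difference was 0.058 (SE 0.091, interval -0.15 to 0.27), and it was -0.023 without KO replicate 1. Hoxb3, which disturbs lymphoid and myeloid development when forced in mouse marrow (TC1100001499.mm.1), read 6.19, 6.11, 6.07 and 6.0 in KO, against 6.07, 6.19, 6.17, 6.59 and 6.29 in WT. Its unadjusted limma p of 0.130 was the smallest of the 33 genes by that test, with WT replicates 4 and 5 the highest arrays and the other 3 WT arrays within the KO range. The difference of -0.17 (SE 0.10) had an interval from -0.40 to 0.062 and a limma adjusted p of 0.786. It was -0.088 without WT replicate 4 and -0.051 without WT replicates 4 and 5. By the exact permutation test its p was 0.167, and Hoxb1, below background in every array, had the smallest of the 33, 0.0794. For Hoxb6 the difference was -0.14 (SE 0.098, interval -0.36 to 0.087), and -0.23 without KO replicate 1, where the unadjusted limma p was 0.0174 and the adjusted p 0.964. It was -0.071 without KO replicate 3 and -0.087 without KO replicate 4.

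**Figure D2:**
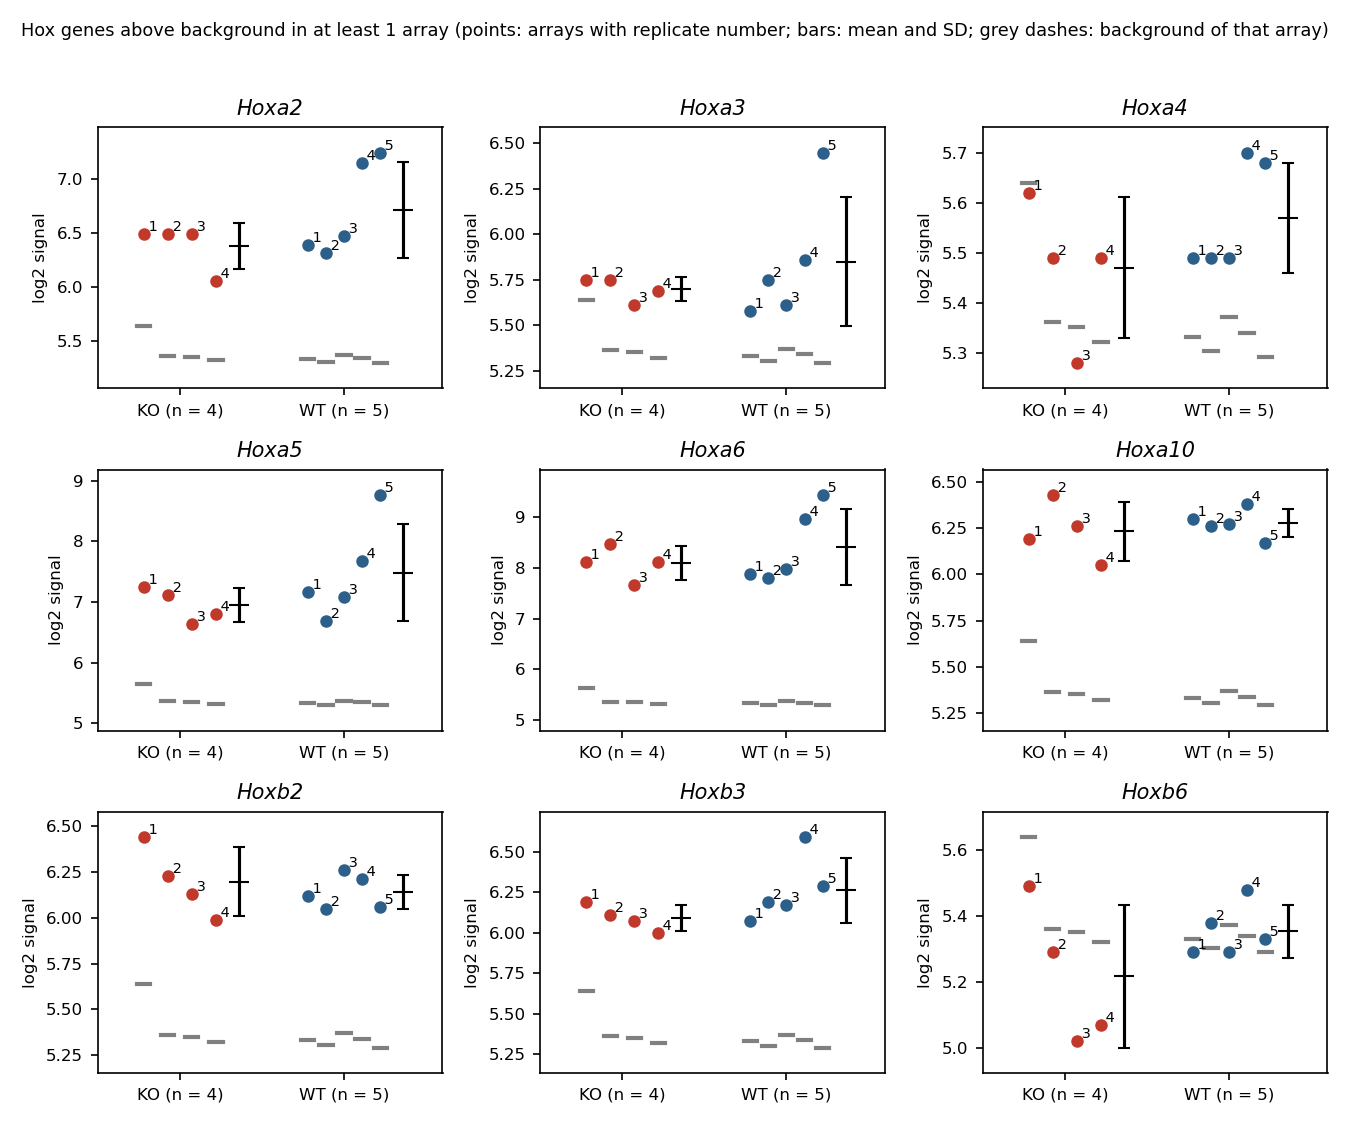
Log2 signal (vertical axes, a separate scale for each gene) of the 9 Hox genes above background in at least 1 array, with 4 KO arrays left and 5 WT arrays right, each point 1 array with its replicate number, bars the mean and SD, and grey dashes the background of that array. WT replicates 4 and 5 are the highest arrays for Hoxa2, Hoxa3, Hoxa4, Hoxa5 and Hoxa6, while the remaining WT points lie within the KO range, except WT replicate 1 for Hoxa3, which lies below it.

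The other 24 genes were below background in every array. In HoxA, Hoxa11, a kidney and forearm gene, spanned 4.26 to 4.38 over the 9 arrays and Hoxa13, a gene of the hands and feet, 3.84 to 3.98. Among HoxB genes, Hoxb1, a hindbrain gene, spanned 4.67 to 5.03, Hoxb5, a gene used in the mouse to mark long-term stem cells, 4.92 to 5.40, and Hoxb7, Hoxb8, Hoxb9 and Hoxb13 spanned 3.26 to 4.68 together. HoxC signals as a whole ran from 3.46 to 5.48, including Hoxc13, a hair gene, at 3.62 to 4.01. HoxD signals ran from 3.34 to 4.62, including Hoxd13, a digit gene, at 3.34 to 3.61. Counted with Hoxb6, the 25 genes with a mean below background differed between KO and WT by -0.14 to 0.096, and 19 were higher and 6 lower in KO by mean, with a median of 0.020. Over all genes, which include those above background, the median was 0.034, with 19267 higher and 10681 lower. Without KO replicate 1, the array with the highest background, the median over all genes was 0.0067. That array was the highest for Hoxb1, Hoxb5, Hoxb8, Hoxc4, Hoxc6, Hoxc12 and Hoxd1, among others. Equal values are common at this level. At least 5 of the 9 arrays held the same value in 12 of the 33 genes (36.4%), against 25.8% of all genes and 13.2% of all genes above background. Of those 12 Hox genes, 11 were below background. Over all genes, too, ties were less common above background, so the 36.4% is not shown to be particular to Hox genes. Such ties lower the spread measured for these genes.

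**Figure D3:**
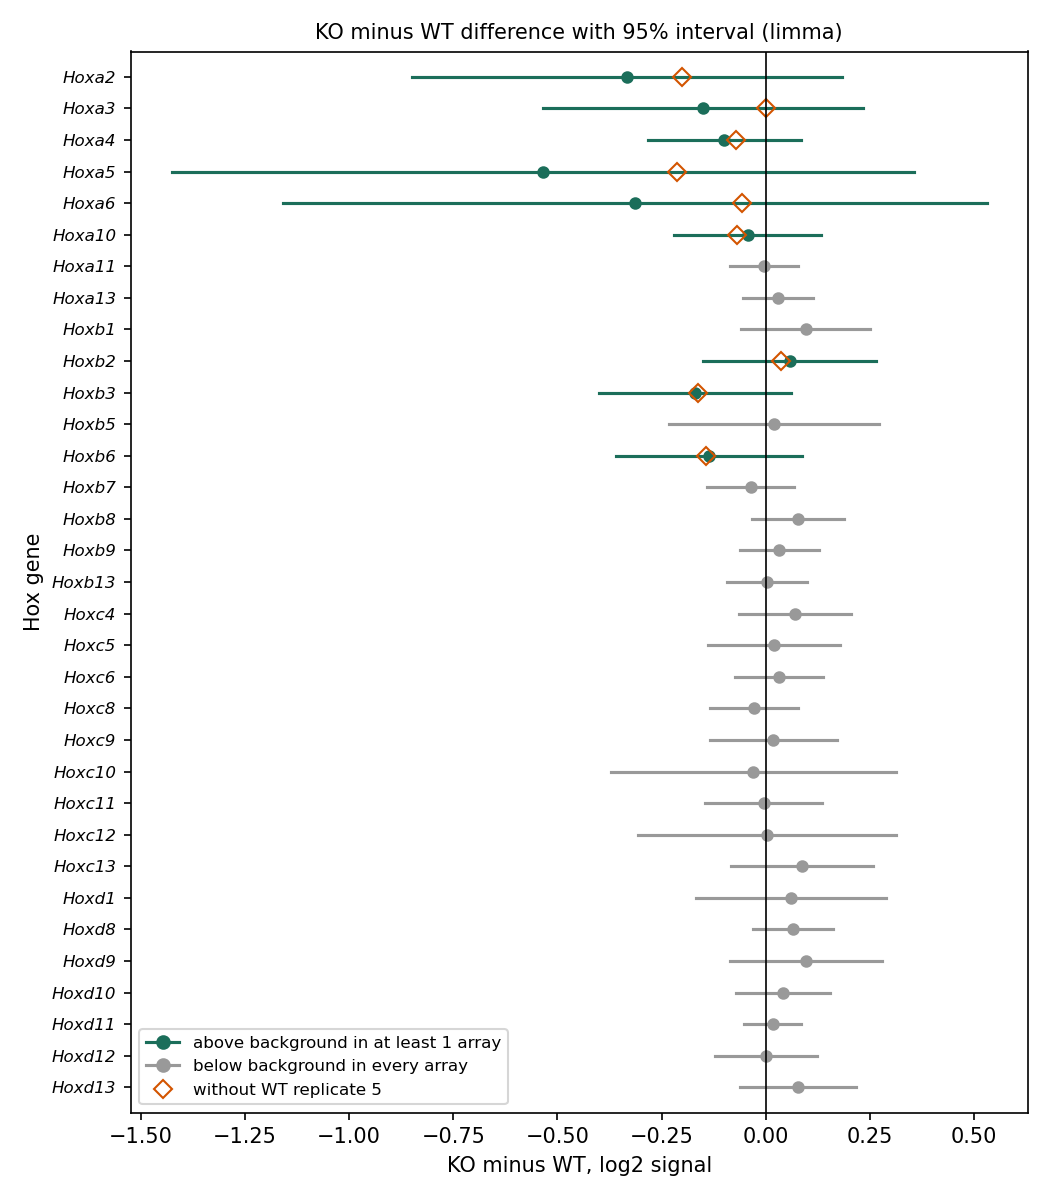
KO minus WT difference in log2 signal (horizontal axis) for each of the 33 Hox genes (rows), with the 95% interval of limma's fit; green marks genes above background in at least 1 array, grey those below it in every array, and open diamonds the difference of the green genes without WT replicate 5. Every interval crosses 0, and the difference of Hoxa3 is 0 without that array.

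In HoxA, WT replicates 4 and 5 were the 2 highest arrays for 5 of the 6 Hoxa genes above background, and WT replicate 5 was the highest for 4 of them. The share of all genes with this order of arrays is not given here, so the order is not shown to be particular to Hoxa genes. The RefSeq span of Hoxa3 overlaps those of Hoxa4, Hoxa5 and Hoxa6, so these genes may not be separate readings. Averaged over the 6 genes, the log2 signal was 6.57, 6.62, 6.32 and 6.37 in KO replicates 1 to 4, against 6.47, 6.39, 6.48, 6.96 and 7.29 in WT replicates 1 to 5. The first 3 WT arrays thus lay within the KO range. The 2 Hoxb genes averaged 6.32, 6.17, 6.10 and 6.0 in KO, against 6.10, 6.12, 6.22, 6.40 and 6.18 in WT, where replicate 4 and not replicate 5 was the highest. Without WT replicate 5 the median difference of the 8 genes above background was -0.071. Without WT replicates 4 and 5, a setting chosen after these values were seen, it was -0.015, with 5 of 8 genes lower in KO.

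Markers of other blood cells stood apart in WT replicate 5, and Flt3 in WT replicates 4 and 5. The markers belong to 10 lists of cell type markers and were picked for naming after their values were seen. Of 9 erythroid genes 8 were measured and 7 were above background, with Slc4a1, a gene of late red cells, at 4.73 to 4.88 in KO and 4.75 to 4.78 in WT, below background in every array. The mean of the 7 was 9.04, 9.52, 10.13 and 9.95 in KO, against 9.97, 10.35, 10.01, 9.19 and 6.81 in WT, so WT replicate 5 was lowest by far. Car1, a carbonic anhydrase of early erythroid cells, read 15.40 to 16.86 in KO and, in WT, 15.64 to 16.99 in 4 arrays and 6.38 in replicate 5. The 5 megakaryocyte genes averaged 9.91 to 10.29 in KO and 7.91 to 10.25 in WT, and the 7 mast cell and basophil genes 8.97 to 9.40 in KO and 7.71 to 9.02 in WT, with WT replicate 5 the lowest array of both. The reverse held for Flt3, a receptor of multipotent and lymphoid-primed progenitors, which read 11.22, 11.57, 10.81 and 10.94 in KO, against 11.05, 11.08, 11.14, 12.15 and 12.78 in WT. Flt3 was thus highest in the arrays where the Hoxa genes were highest. The 13 stem cell genes averaged 8.54 to 8.79 in KO and 8.62 to 8.93 in WT. That list was split in WT replicate 5, which was the highest array for 6 of them (Hlf, Mecom, Procr, Meis1, Fgd5 and Esam) and the lowest for 5, Vwf and Slamf1 among them. The part of these cells in the Hoxa values was not tested.

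**Figure D4:**
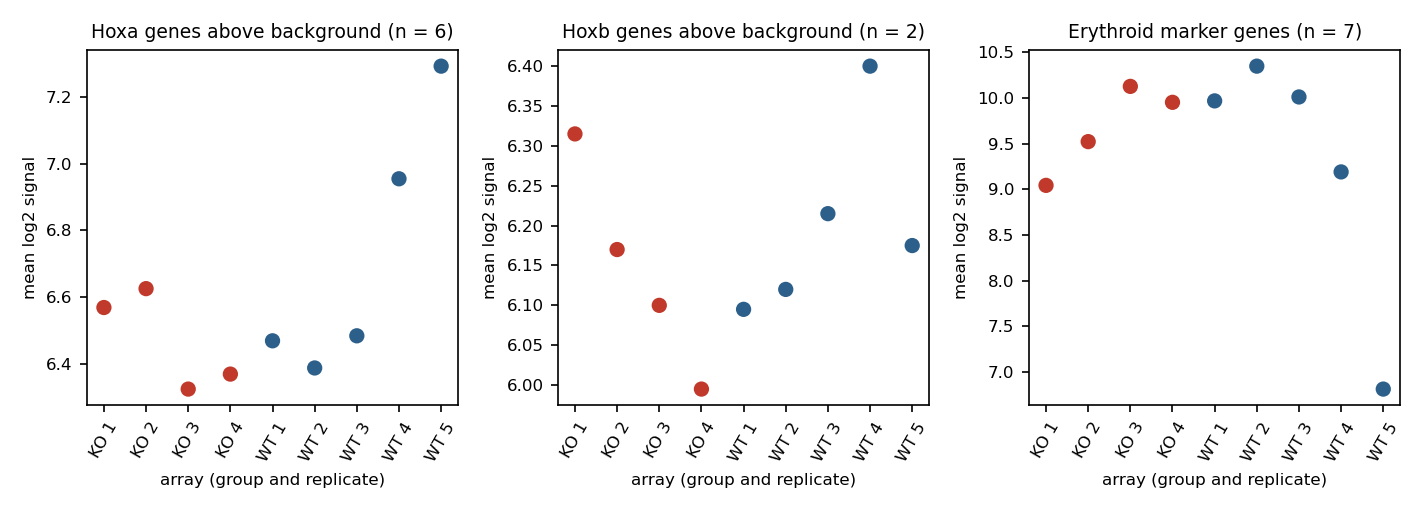
Mean log2 signal in each array (KO replicates 1 to 4 in red, then WT replicates 1 to 5 in blue) of the 6 Hoxa genes above background (left), the 2 Hoxb genes above background (middle) and 7 erythroid marker genes (right), on separate vertical scales that do not start at 0. WT replicate 5 is the highest array for the Hoxa genes, at 7.29, and the lowest for the erythroid genes, at 6.81.

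Other markers were higher in KO by mean. All 8 genes of granulocyte-monocyte progenitors had a higher mean in KO, and their average was 10.91 to 11.53 in KO and 10.18 to 11.20 in WT. The 6 mature neutrophil genes above background averaged 9.75, 9.38, 6.41 and 6.90 in KO replicates 1 to 4, against 5.85 to 7.58 in WT, so only KO replicates 1 and 2 lay above the WT range. The 5 B cell genes above background averaged 6.40 to 6.58 in KO and 5.93 to 6.36 in WT. All 7 mast cell and basophil genes had a higher mean in KO, with a median difference of 0.82. Fcer1a, a subunit of the IgE receptor, read 7.79, 8.36, 7.51 and 7.63 in KO, against 6.41, 6.70, 7.26, 6.99 and 5.68 in WT, with no overlap. In these lists 0 genes passed limma's adjusted test. An unadjusted limma p under 0.05, found in 5.01% of all genes, was reached by 4 of 8 measured granulocyte-monocyte genes, 2 of 10 neutrophil genes, 5 of 9 B cell genes and 3 of 7 mast cell and basophil genes, all with higher means in KO. Of these, Mmp8 of the neutrophil list and Igll1 and Vpreb3 of the B cell list had means below background. A higher mean in KO was not particular to these lists, since 19267 of all 30142 genes had one, and 8700 of the 16023 genes above background. It was found in 5 of 5 measured megakaryocyte genes, where Gp9 had an unadjusted limma p under 0.05, and in 7 of 8 erythroid genes. It was also found in 8 of 9 stromal and endothelial genes and 5 of 8 T and NK cell genes. The count was 6 of 13 for stem cell genes and 0 of 3 for genes of the LSK gate. Whether these markers bear on the Hox differences was not tested.

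Hox proteins bind DNA with TALE homeodomain cofactors, and 7 of 10 measured cofactors were above background (Meis1, Pbx2, Pbx3, Pbx4, Pknox1, Tgif1 and Tgif2), with 0 passing the adjusted test and 0 under an unadjusted limma p of 0.05. Of all genes 53.2% were above background and 5.01% were under that unadjusted p. Meis1, the partner of Hoxa9 in leukaemia, had log2 signals of 12.74, 12.94, 13.01 and 13.01 in KO, against 13.19, 12.92, 12.72, 13.35 and 13.52 in WT. WT replicates 4 and 5 were the highest arrays here as well, and the groups overlapped. The means were 12.93 ± 0.13 (SD, n = 4) among KO arrays, against 13.14 ± 0.32 (SD, n = 5) among WT arrays, with an interval of the difference from -0.58 to 0.15 (limma adjusted p = 0.786). Pbx3, a cofactor of Hoxa9 and Meis1, differed by 0.18 (SE 0.097), Pbx2 by -0.0070 (SE 0.081) and Pknox1 by -0.22 (SE 0.10).

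The chromatin regulators that act on Hox clusters were above background. All 18 measured trithorax and elongation genes were above it, against 53.2% of all genes. Of the 18, 1, Rbbp5, a subunit of the MLL complexes, had an unadjusted limma p under 0.05, against 5.01% of all genes. It read 10.42, 10.35, 10.47 and 10.70 in KO, against 10.71, 10.78, 10.79, 10.63 and 10.54 in WT, and its difference of -0.20 had an adjusted p of 0.786. The groups overlapped. Kmt2a, the MLL methyltransferase, averaged 13.02 ± 0.31 (SD, n = 4) among KO arrays, against 13.34 ± 0.27 (SD, n = 5) among WT arrays, a difference of -0.32 (SE 0.18). Men1, the menin that ties MLL to Hox genes, differed by -0.19 (SE 0.29), with KO replicate 1 at 9.36 and the other KO arrays at 10.64 to 10.83. Of the 18 genes 13 were lower in KO by mean, and the median difference was -0.058. The mean signal of the 18 was 10.33 in KO replicate 1 and 10.67 to 10.70 in the other KO arrays, against 10.59 to 10.72 in WT, so KO replicate 1 stood below all others. All 22 measured polycomb genes were above background, against the same 53.2%. Of them 1, Phc3, had an unadjusted limma p under 0.05, against the same 5.01%, at a difference of -0.17. Ezh2, the polycomb methyltransferase, differed by -0.081 (SE 0.040), and the median of the list was 0.013. Of 15 measured Cdx and retinoid genes, upstream regulators of Hox genes, 8 were above background, against the same 53.2%, and Cdx1, Cdx2 and Cdx4 were below it. None of the 15 reached an unadjusted limma p under 0.05, against 5.01% of all genes.

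Among 20 measured genes reported as Hox or Meis1 targets, 18 were above background, against 53.2% of all genes. Of the 20, 1, Myc, had an unadjusted limma p under 0.05, against 5.01% of all genes. Myc, a growth-promoting transcription factor, differed by 0.20 (SE 0.076, adjusted p = 0.786). Mecom, a stem cell transcription factor, averaged 7.31 ± 0.15 (SD, n = 4) among KO arrays, against 7.58 ± 0.29 (SD, n = 5) among WT arrays, with WT replicates 4 and 5 the highest at 7.82 and 7.92. In the separate list of stem cell genes 1 of 13, Hlf, had an unadjusted limma p under 0.05, against 5.01% of all genes. Hlf, a transcription factor, read 10.64, 10.61, 10.03 and 9.80 in KO, against 10.77, 10.63, 10.63, 10.96 and 11.62 in WT. The difference was -0.65, with an exact permutation p of 0.0476 and a limma adjusted p of 0.786. Homeobox genes outside the clusters gave a scale for the Hox counts. Of 11 measured homeobox genes of blood 5 were above background (Hhex, Hlx, Satb1, Cux1 and Zfhx3), and of 18 homeobox genes of other tissues 1 was, Nkx2-1, by 0.0071 on the log2 scale. Of all genes 53.2% were above background. In both lists the limma count at an unadjusted p under 0.05 was 0, against 5.01% of all genes.

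The Hox clusters also encode microRNAs, whose mature 5p forms are shown because 2 of the shared probesets carry their symbols and 2 of their genes had an unadjusted p under 0.05. Sequences and positions are from RefSeq (GRCm38.p6), written 5′ to 3′, and the capitals mark the seed, bases 2 to 8.
miR-10a-5p (chr11:96317186-96317208, plus strand): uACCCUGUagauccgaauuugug
miR-10b-5p (chr2:74726074-74726096, plus strand): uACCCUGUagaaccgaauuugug
miR-196a-5p (chr11:96265187-96265208 and chr15:102973365-102973386, plus strand): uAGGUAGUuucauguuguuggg
miR-196b-5p (chr6:52230129-52230150, minus strand): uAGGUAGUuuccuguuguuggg

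The first pair shares 1 seed and the second pair another. Mir10a and Mir196a-1 lie in HoxB, Mir10b in HoxD, Mir196b in HoxA and Mir196a-2 in HoxC, and miR-196 is known to target Hox mRNAs, Hoxb8 among them. Whether these probesets read mature forms or precursors was not tested. Of 16 transcripts within the clusters 7 were measured, and 0 had a mean above background, against 53.2% of all genes. An unadjusted limma p under 0.05 was found in 2 of the 7, against 5.01% of all genes. Mir196a-1 read 4.91, 4.70, 4.64 and 4.47 in KO, against 4.38, 4.27, 4.54, 4.49 and 4.56 in WT, a difference of 0.23 (SE 0.096, adjusted p = 0.786), and was below background in every array. Mir196a-2 read 5.95, 5.29, 5.58 and 5.33 in KO, against 5.29, 5.29, 5.16, 4.93 and 5.29 in WT, a difference of 0.35 (SE 0.14, adjusted p = 0.786), above background in 3 of the 9 arrays. Both were highest in KO replicate 1, and the groups overlapped. Mir10b was at 2.99 to 3.38.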

How the data were processed

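LSK cells were profiled on 4 KO and 5 WT arrays. The labels call the arrays biological replicates, each taken here as 1 mouse, and name no batch. The deposited table was used as log2 signals normalized by the authors. The sources used here state neither the log base nor the background correction or normalization, and name Partek 6.6 (per the submitters' processing notes). The deposited values ran from 1.84 to 19.45, with array medians of 5.08 to 5.33. Of 72688 probesets 6732 were controls, 30604 of the rest carried exactly 1 symbol in the platform annotation, 2146 several, and 33206 were not listed. Symbols were updated through Entrez identifiers (827 of them), and the probeset with the highest mean over the 9 arrays stood for each of 30142 genes. RefSeq spans overlap in 6 pairs of Hox genes (Hoxa3 with Hoxa4, Hoxa5 and Hoxa6, Hoxb3 with Hoxb4, Hoxd3 with Hoxd4, Hoxd10 with Hoxd11), so their probesets may read shared transcripts, which was not tested.

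KO and WT were compared over all genes with limma (version 3.58.1, R 4.3.3) by lmFit and eBayes without covariates, and p-values were adjusted by Benjamini-Hochberg over 30142 genes at a threshold of 0.05. An exact permutation test (two-sided, 126 splits of the arrays, smallest p 0.00794) was added for single genes. The number of arrays limits the precision, with a median standard error of 0.13 for the 8 Hox genes above background. The fit was checked on simulated data with independent normal noise and no ties, so the check does not cover the tied values of many Hox genes. The Hox genes, the lists and the rule for naming genes were chosen with earlier results of these data known. The rule gave values for each Hox gene above background in at least 1 array, the 2 nearest on each side of background, members with an unadjusted p under 0.05 (at most 2 per direction) of the lists of cofactors, chromatin regulators, Cdx and retinoid genes, cluster transcripts and targets, and Meis1, Pbx2, Pbx3, Pknox1, Kmt2a, Men1, Ezh2, Abi1 and Kit, and further genes, among them Flt3, Hlf, Mecom, Fcer1a and Car1, are examples named after their values were seen. Alternatives were another background level, median centring, quantile normalization, an intensity trend, a filter on dim genes, the mean of probesets, a replicate block and leaving out each array. 2 settings that leave out a pair of arrays were added after the data had been seen.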

Additional observations from a re-analysis of the deposited data

Results flagged for a closer look

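In 6 of 40 gene and group pairs checked, 1 array lay farther from the others than Dixon's test allows, which chance gives in about 1 in 20 groups without ties. Ties are common in these data. For Hoxa2 and Pbx2 the other 3 KO values were equal, so the 6 of 40 cannot be read against that rate. Hoxa2 was 6.06 in KO replicate 4, against 6.49 in each of the other 3 KO arrays. Pbx2 was 9.45 in KO replicate 1 and 9.38 in WT replicate 5. Men1 was 9.36 in KO replicate 1. Kit was 13.82 in KO replicate 1 and 14.39 in WT replicate 3. KO replicate 1 and WT replicate 5 are the arrays that correlate least with the others, and they hold 4 of the 6.

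Probesets that carry the symbol of a Hox gene and a second symbol were outside the comparison of genes, and 3 of 4 were above background in all 9 arrays. The probeset of Hoxa9 and Mir196b had a mean of 7.93 and read 7.87, 7.87, 7.78 and 7.87 in KO, against 7.87, 7.80, 7.72, 8.04 and 8.59 in WT. The probeset of Hoxa7 and Mira had a mean of 7.56, with 7.51 ± 0.056 (SD, n = 4) among KO arrays, against 7.60 ± 0.20 (SD, n = 5) among WT arrays. The probeset of Hoxb4 and Mir10a had a mean of 6.86, with 6.84 ± 0.33 (SD, n = 4) among KO arrays, against 6.88 ± 0.33 (SD, n = 5) among WT arrays. WT replicate 5 was the highest array of each of the 3. The probeset of Hoxd3 and Hoxd4 lay at 4.57 to 4.78, below background in every array. These signals cannot be given to 1 of the 2 symbols of a probeset, and the differences were not tested.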

How the results depend on the processing

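No Hox gene passed the adjusted threshold under any of the 17 alternatives, where the lowest limma adjusted p was 0.665. Of 152 differences recomputed for the 9 genes above background in at least 1 array, 145 kept their direction. The intensity trend and the filter on dim genes leave each difference as it is. So does the mean of probesets, since each Hox gene has 1 probeset. Agreement under these settings was fixed in advance and adds nothing to the 145. Hoxa3 turned to 0.053 and Hoxa6 to 0.21 without WT replicates 4 and 5. Hoxa3 was 0.0 without WT replicate 5. Leaving out 1 array at a time gave -0.11 to 0.017 for Hoxa10, -0.023 to 0.13 for Hoxb2 and -0.22 to 0.0 for Hoxa3. With both KO replicate 1 and WT replicate 5 left out, Hoxb2 was -0.043. The count of Hox genes at an unadjusted limma p under 0.05, 0 as reported, was 1 with median centring (Hoxb6), 1 with quantile normalization (Hoxb6), 0 to 1 with 1 array left out (Hoxb6, when that array was KO replicate 1) and 2 with KO replicate 1 and WT replicate 5 both left out (Hoxb6 and Hoxc8). Above background in every array were 7 genes, 9 at percentile 90 and 2 at percentile 99. At percentile 90, 2 HoxC genes were above background by mean, and with percentile 99, antigenomic probesets or quantile normalization 0 HoxC and HoxD genes were. Median centring moved the median difference of the 8 Hox genes to -0.21 and that of all genes to -0.014, against 0.034 as deposited. Same-numbered KO and WT arrays correlated in their deviations at -0.18, 0.15, -0.013 and 0.27, so the numbers are not shown to pair the mice. The fit with the replicate block leaves out WT replicate 5. Its differences therefore repeat those without that array and are no separate check of direction. Its median was -0.071 and its difference for Hoxa3 0.0, with 0 Hox genes past the threshold. The causes were not tested.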
